A study of Mus musculus with 15 samples.

Results

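The genes described here encode the ephrins and their Eph receptors, the netrins netrin-1 and netrin-4 with the receptors DCC, neogenin and UNC5A to UNC5D, and the Slit ligands with their Robo receptors. They were taken by symbol from the probe sets that carry 1 gene symbol, and comprised 36 genes on 76 probe sets, of 18193 genes measured. Levels were read in the first branchial arch of the mouse embryo at E10.5, on Affymetrix arrays, in 5 groups of 3 arrays each. The arch gives rise to the upper and lower jaw, and its maxillary and mandibular branches were dissected separately. Wild-type embryos provided the mandibular branch and 2 groups of the maxillary branch, called set 1 (titled MXA) and set 2 (titled MXA2). The mandibular branch was also taken from Dlx5/6 mutants, in which the homeobox genes Dlx5 and Dlx6, known for their part in lower jaw identity, are mutated. A maxillary group titled KO completed the series. The labels do not name the gene disrupted in KO, although they list dlx2 and dlx1/2 mutants among those planned. The labels were written before the dissections and anticipated several arches for each experiment, and they do not say how many were pooled for an array. Strain and alleles are not given in the labels.

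Eph receptors are receptor tyrosine kinases that bind ephrins on a neighbouring cell, ephrin-A proteins through a lipid anchor and ephrin-B proteins through a transmembrane segment, and both sides of the contact can signal. Netrin-1 attracts cells and axons through DCC and repels them through UNC5 receptors, and Slit proteins repel through Robo receptors. In the head these systems are known for keeping neural crest streams apart, for shaping the facial and palatal mesenchyme, and for steering the axons of the cranial nerves.

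The genes named in the labels were read first. Dlx5 signal was 727 ± 40.5 (SD, n = 3) in the wild-type mandibular branch and 10.9 ± 2.97 in the Dlx5/6 mutant, and Dlx6 signal was 249.6 ± 51.3 against 3.32 ± 1.52. Dlx2 signal was 3.36 ± 0.180 in KO and 422 ± 20.1 in set 2, Dlx1 signal was 209 ± 11.7 against 711 ± 30.8, and Dlx5 signal was 33.5 ± 5.98 against 116.9 ± 24.6. Hand2, a mandibular gene, stood at 1665 ± 51.2 in the wild-type mandibular branch and at 13.5 ± 3.84 in set 1. A bacterial spike-in control, dap, split the arrays into 9 (both mandibular groups and set 1, at 287 to 340 signal units) and 6 (KO and set 2, at 2564 to 2821), so KO was set against set 2 and the wild-type mandibular branch against set 1. The mean after removal of the extreme 2% was 150.0 on every array, and arrays of a group correlated at 0.984 to 0.989. Sensory neuron markers moved between groups: all 10 measured of 12 were called lower in the wild-type mandibular branch than in set 1, and in set 2 against set 1 all 10 differences were negative, 9 of them called. Their summed signal was 2720 to 2797 in set 1, 1131 to 1148 in set 2, 915 to 937 in KO, 516 to 540 in the wild-type mandibular branch and 524 to 620 in the Dlx5/6 mutant. Glia markers, 4 measured of 6, were all negative between the wild-type mandibular branch and set 1 (3 called, median -1.13), with 2 called lower in set 2 than in set 1. They summed to 172 to 228 in the wild-type mandibular branch, 201 to 246 in the mutant, 604 to 765 in set 1, 399 to 511 in set 2 and 355 to 371 in KO. Macrophage markers summed to 291 to 322 in the wild-type mandibular branch, 482 to 490 in the mutant, 466 to 481 in set 1, 441 to 485 in set 2 and 653 to 729 in KO. The part of these 3 cell types in the guidance gene results was not tested. These are whole branches, in which fewer cells of a type and less RNA per cell cannot be told apart.

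Of the 36 guidance genes, 30 passed the filter on low values, with 61 probe sets. The filter asked for a signal above the 40th percentile of the array on at least 3 arrays. Epha6, Epha8, Epha10 and Unc5a passed that level on 0 arrays, Unc5d on 1 and Epha5 on 2, and their brightest probe sets averaged 4.16 (Epha10) to 12.7 (Epha5) over the 15 arrays. Just inside the filter were Slit1, above the level on 6 arrays, and Ephb1 and Robo3, each on 10. Ephb2 has no probe set with 1 symbol here and was not analysed here.

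The results turn on 4 of these genes: Unc5c, Efnb2, Epha3 and Epha4. Unc5c, Efnb2 and Epha3 were higher in the wild-type mandibular than maxillary branch and lower in the Dlx5/6 mutant. The promoters of these 3 genes are shown, as they were called in both comparisons. Both comparisons share the wild-type mandibular arrays, so their opposite signs are not independent. The mutated genes encode DNA-binding homeodomain proteins, which as a class recognise sequences with an ATTA core. Regulation through these promoters was not tested. The windows span 250 bases before to 50 after the start site in RefSeq, build GRCm38.p6, and any ATTA, on either strand, is in capitals. The Unc5c window lies at chr3:141465314-141465613 on the plus strand, the Efnb2 window at chr8:8661193-8661492 and the Epha3 window at chr16:63864126-63864425, both on the minus strand.
Unc5c: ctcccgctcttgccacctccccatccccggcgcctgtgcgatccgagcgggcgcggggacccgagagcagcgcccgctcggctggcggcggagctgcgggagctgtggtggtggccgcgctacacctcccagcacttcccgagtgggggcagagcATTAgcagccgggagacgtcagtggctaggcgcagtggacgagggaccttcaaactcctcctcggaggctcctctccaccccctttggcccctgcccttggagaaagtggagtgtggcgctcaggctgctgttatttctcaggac
Efnb2: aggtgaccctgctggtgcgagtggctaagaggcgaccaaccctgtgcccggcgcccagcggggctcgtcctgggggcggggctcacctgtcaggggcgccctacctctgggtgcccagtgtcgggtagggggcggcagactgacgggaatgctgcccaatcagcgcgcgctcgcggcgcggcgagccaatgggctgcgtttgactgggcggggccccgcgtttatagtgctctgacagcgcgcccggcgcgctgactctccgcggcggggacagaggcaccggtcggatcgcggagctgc
Epha3: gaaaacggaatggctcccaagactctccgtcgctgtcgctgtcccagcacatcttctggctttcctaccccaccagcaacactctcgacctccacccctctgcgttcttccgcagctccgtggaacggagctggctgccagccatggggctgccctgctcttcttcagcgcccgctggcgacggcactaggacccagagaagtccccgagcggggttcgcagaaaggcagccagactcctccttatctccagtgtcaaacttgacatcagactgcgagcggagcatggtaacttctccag
The Unc5c window holds 1 ATTA, and the windows of Efnb2 and Epha3 hold 0. The Epha4 window, not shown, also holds 0. All 3 windows shown are rich in G and C (68.3% in Unc5c, 72.3% in Efnb2, 60.7% in Epha3), with 24, 35 and 18 CpG dinucleotides. RefSeq windows were found for 31 of the 36 genes (36 windows). Their median was 21.5 CpG dinucleotides and 64.8% G and C, against 7 and 52.7% over all 32851 windows. The longer palindrome TAATTA, which contains ATTA, stood in 3 of the 36 windows (8.33%, those of Efna1, Epha5 and Robo3) and in 5.29% of all windows, and ATTA on either strand stood in 15 (41.7%) and in 58.0%.

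In the wild-type comparison of mandibular with maxillary branch, 3 of 30 guidance genes were called higher in the mandibular branch (limma, Benjamini-Hochberg adjusted p under 0.05 over all probe sets) and 0 lower. Over all 13945 genes, 1.55% were called higher, 2.01% lower and 3.56% in either direction. The guidance genes had 18 positive and 12 negative differences, with a median log2 difference of 0.09 beside 0.00 over all genes. At an unadjusted p under 0.05, 7 guidance genes were higher and 0 lower (23.3%), against 13.8% of all genes in either direction. In the Dlx5/6 mutant mandibular branch, 4 of 30 were called lower than in wild type and 0 higher, where 1.56% of all genes were called lower, 1.56% higher and 3.13% in either direction. There were 12 positive and 18 negative differences, with a median of -0.07 beside -0.01 over all genes. At an unadjusted p under 0.05 there were 6 lower and 2 higher (26.7%, against 14.4% of all genes in either direction). Both comparisons use the same 3 wild-type mandibular arrays. The groups did not overlap for 9 of 30 guidance genes (30%) between the branches, against 19.6% of all genes, and for 6 (20%) between mutant and wild type, against 20.7%.

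**Figure D1:**
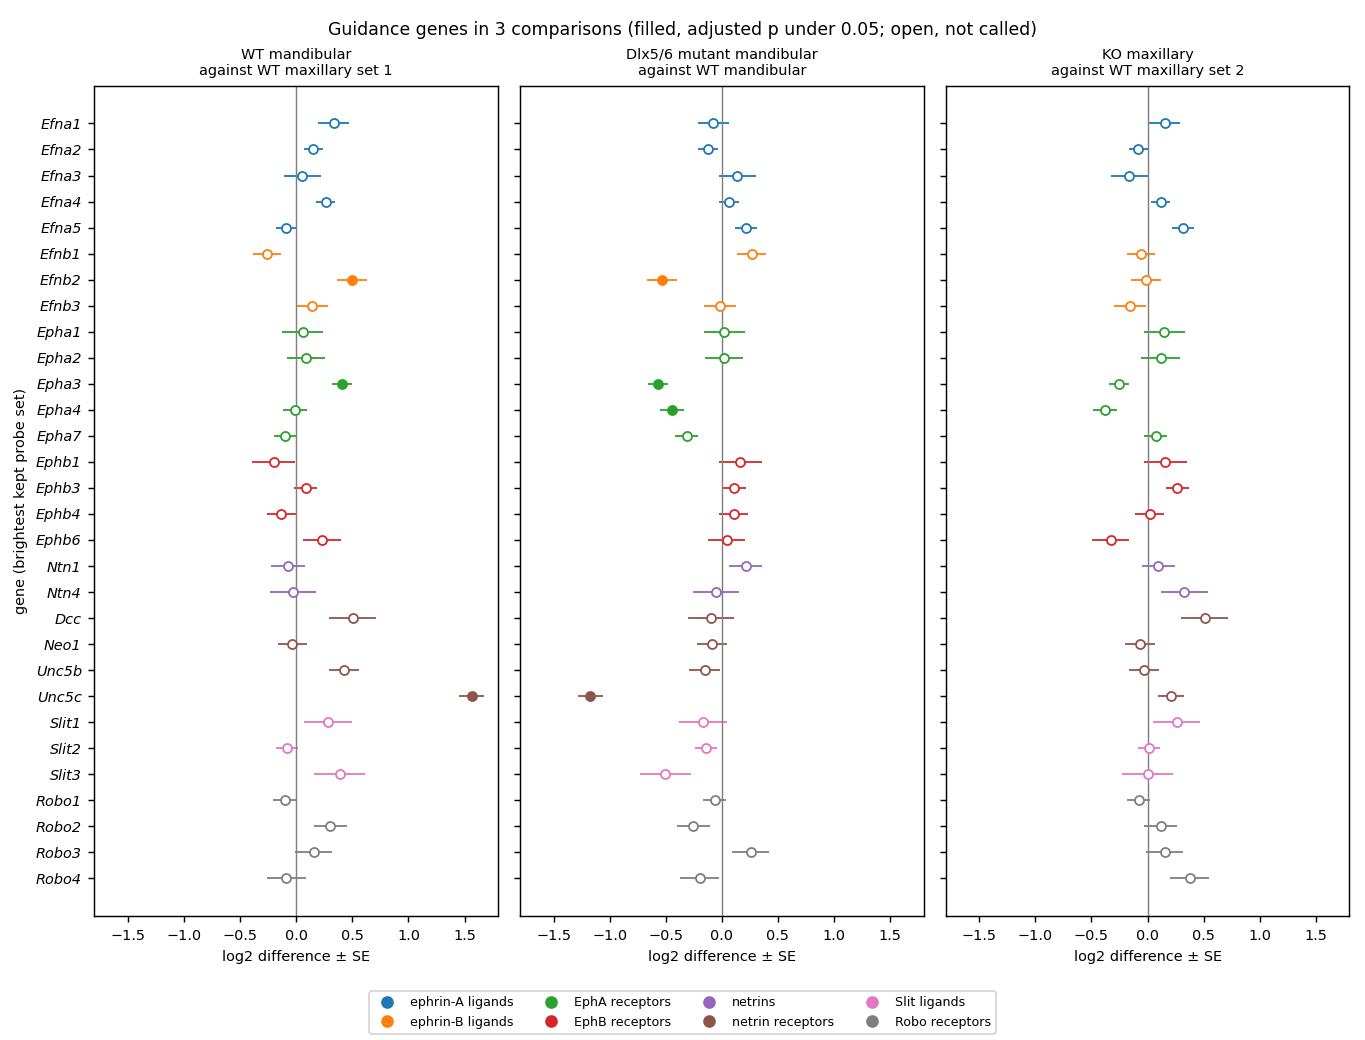
Log2 differences of the 30 guidance genes (rows, coloured by family) in 3 comparisons, each point a fitted difference with its standard error, filled where the adjusted p was under 0.05. Filled points are Unc5c, Efnb2 and Epha3 on the left (1.56, 0.50 and 0.41) and these with Epha4 in the middle (-1.17, -0.53, -0.57 and -0.45); the right panel has no filled point.

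Unc5c, a receptor through which netrin-1 repels, had the widest differences of the 30 genes in both comparisons. Its signal was 307, 266 and 279.6 on the wild-type mandibular arrays and 121, 92.3 and 103 on the Dlx5/6 mutant arrays. On maxillary arrays it was 74.3, 67.3 and 81.0 in set 1, 63.6, 61.4 and 58.3 in set 2, and 87.3, 76.3 and 71.5 in KO. Every wild-type mandibular array stood above every other array, and every mutant array stood above every maxillary array. The mandibular mean was 284 ± 21.0 (SD, n = 3) against 74.2 ± 6.85 in set 1, 3.83-fold, a log2 difference of 1.56 ± 0.11 (SE, adjusted p = 1.7e-09). Log2 differences here are of log2(signal + 32), which understates the change of dim genes, and folds are ratios of mean signals. In the mutant the mean was 106 ± 14.6, with wild type 2.69-fold above it, a log2 difference of -1.17 ± 0.11 (adjusted p = 3.4e-07). The mutant level lay above set 1 by 0.39 ± 0.11 (95% interval 0.16 to 0.63), which did not pass the test (adjusted p = 0.16). Against set 2 the same mutant arrays differed by 0.57 (adjusted p = 0.0016), a comparison across the arrays split by the spike-in. In order of mean signal the groups ran from wild-type mandibular through mutant, KO (78.4) and set 1 to set 2, and the test did not separate KO from set 1 (0.03, adjusted p = 0.90) or set 2 from set 1 (-0.18, adjusted p = 0.41). KO and set 2 did not overlap and differed by 0.21 (95% interval -0.02 to 0.44, adjusted p = 0.55).

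A second Unc5c probe set gave the same picture in the wild-type mandibular branch, the mutant and set 1. It read 239, 235 and 214 on the wild-type mandibular arrays, 74.4, 85.9 and 72.0 in the mutant, and 44.6, 49.0 and 54.2 in set 1. KO (56.9, 51.2 and 49.1) and set 2 (38.7, 58.6 and 45.9) overlapped on it, with a difference of 0.04. The log2 differences were 1.68 between branches and -1.22 in the mutant, both called, where 2.63% of all probe sets were called in each comparison. The effect of Dlx5/6 loss on Unc5c differed from that of KO by -1.38 ± 0.16 (95% interval -1.71 to -1.05, adjusted p = 9.8e-06), where 0.76% of all genes were called lower, 0.681% higher and 1.44% in either direction. The second probe set gave -1.26 for that difference (adjusted p = 9e-05). No other guidance gene was called for it. At an unadjusted p under 0.05 there were 5 (16.7%, against 10.8% of all genes in either direction), all negative: Efnb2, Epha3, Epha7, Robo4 and Unc5c. Muscle progenitor markers moved in the same direction as Unc5c. Myf5 and Tcf21, transcription factors of branchial muscle precursors, differed by 1.12 and 1.13 between the branches, both called, and by -0.92 (called) and -0.63 (adjusted p = 0.062) in the mutant. The 5 measured markers of that list, of 6, summed to 288 to 294 signal units in the wild-type mandibular branch, 144 to 214 in the mutant, 119 to 147 in set 1, 129 to 160.4 in set 2 and 167 to 206 in KO, and Myf5 averaged 11.0 in set 1. For the difference of the mutant effects, 4 of the 5 markers were negative (median -0.86), with Myf5 called at -1.34. Their part in the Unc5c results was not tested.

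**Figure D2:**
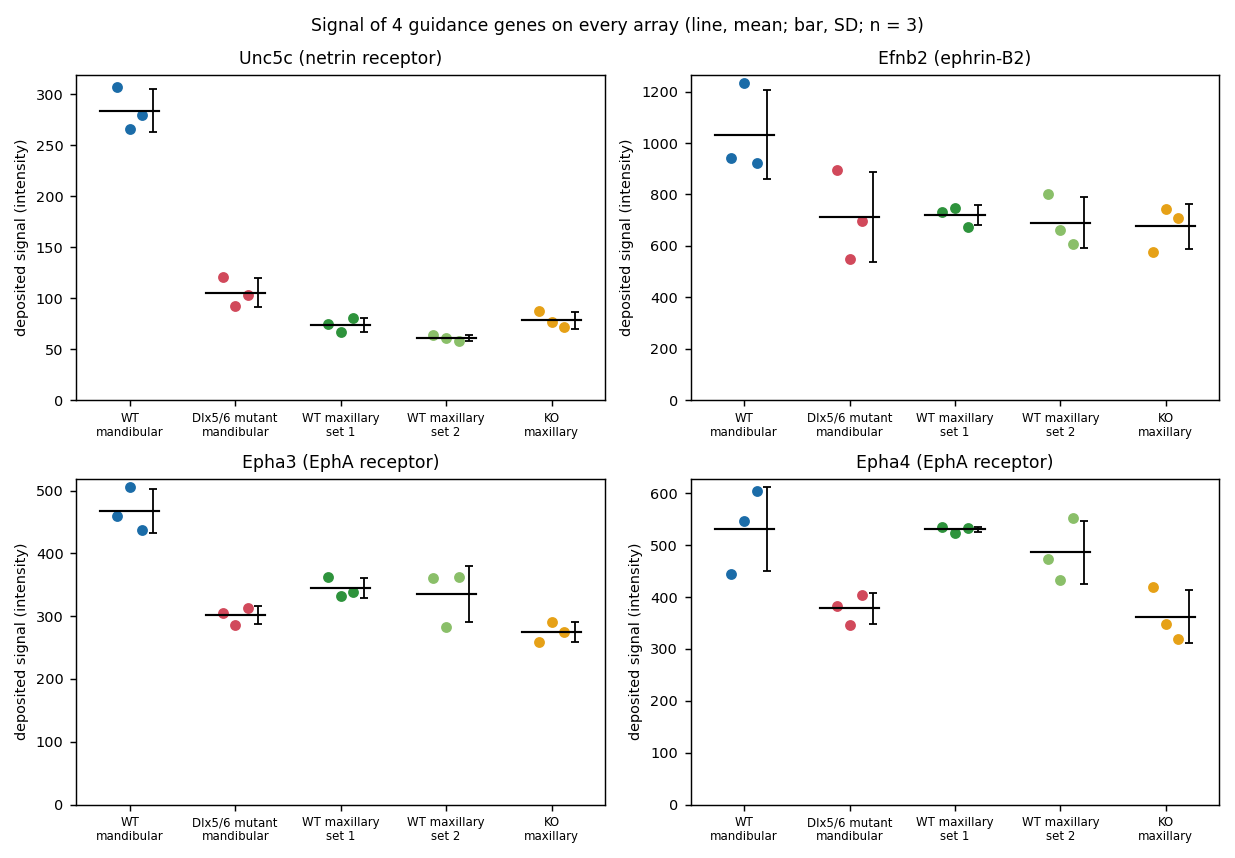
Signal of Unc5c, Efnb2, Epha3 and Epha4 on each of the 15 arrays (points, one colour per group), with group means (lines) and SD (bars, n = 3). For Unc5c the wild-type mandibular arrays lie at 266 to 307 and all maxillary arrays at 58.3 to 87.3; Epha4 is at 524 to 534 in set 1 and at 347 to 404 in the Dlx5/6 mutant.

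The other netrin receptors and the netrins did not pass the test in either comparison. Unc5b, a repulsive netrin receptor also known from blood vessels, had signals of 167, 140.4 and 189 in the wild-type mandibular branch and 95.5, 141 and 109 in set 1. One set 1 array reached the mandibular range, and the difference was 0.43 ± 0.14 (adjusted p = 0.12; 0.24 on its second probe set). In the mutant it differed from wild type by -0.15 (adjusted p = 0.73). Dcc, the attractive netrin receptor, was dim, at 26.4 ± 1.52 in the wild-type mandibular branch, 23.8 ± 6.68 in the mutant and 11.1 ± 8.20 in set 1, with a difference of 0.50 between branches (adjusted p = 0.30). Neo1, the neogenin receptor, varied between group means of 265 and 295, with differences of -0.04 between branches and -0.09 in the mutant. Its 5 probe sets ranged from -0.04 to 0.48 between the branches. Ntn1, which encodes netrin-1, had group means from 72.5 to 94.5 and differed by -0.07 between branches and 0.21 in the mutant. Its second probe set had the opposite sign in both, at 0.05 and -0.24. The dimmer Ntn4 differed by -0.03 and -0.05.

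Among the ephrin-B ligands, Efnb2 changed and Efnb1 and Efnb3 did not pass the test. Efnb2 encodes ephrin-B2, which marks arteries and is also present in mesenchyme. Its signal was 941, 1232 and 923 in the wild-type mandibular branch, 897, 549 and 695 in the Dlx5/6 mutant, and 734, 748 and 675 in set 1. All mandibular wild-type arrays lay above all others, set 2 (802, 662 and 609) and KO (578, 745 and 707) included, although the highest mutant array was 897. The branches differed 1.44-fold, a log2 difference of 0.50 ± 0.13 (95% interval 0.22 to 0.77, adjusted p = 0.045), and wild type was 1.45-fold above the mutant, -0.53 ± 0.13 (adjusted p = 0.029). The call between branches was lost without wild-type mandibular replicate 2 or any one of the set 1 arrays (adjusted p up to 0.27), and that in the mutant without mutant replicate 2 or 3 or wild-type mandibular replicate 2 (up to 0.23). All 4 Efnb2 probe sets were positive between branches (0.30 to 0.50, 2 called) and all 4 negative in the mutant (-0.53 to -0.04, 1 called). Endothelial markers, among which 0 of 10 were called in either comparison (2 and 2 at an unadjusted p under 0.05), summed to 1055 to 1191 in the wild-type mandibular branch, 1058 to 1275 in the mutant and 1180 to 1333 in set 1. Of 6 arch mesenchyme markers, Pdgfra was called higher and Prrx1, Prrx2, Twist1 and Tfap2a lower in the wild-type mandibular branch than in set 1 (median -0.34), and in the mutant Prrx2 and Twist1 were called higher and Msx1 lower than in wild type (median 0.23). They summed to 6324 to 6909 in the wild-type mandibular branch, 7543 to 7993 in the mutant and 7755 to 8237 in set 1. The part of either cell type in the Efnb2 result was not tested.

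Efnb1, the X-linked ephrin-B1 gene of craniofrontonasal syndrome, averaged 188 ± 46.9 in the wild-type mandibular branch, 226 ± 26.1 in the mutant and 227 ± 22.7 in set 1. Its differences had the opposite sign to those of Efnb2, -0.26 between branches (adjusted p = 0.42) and 0.27 in the mutant (adjusted p = 0.38), and all 3 of its probe sets agreed in sign in each. Efnb3 differed by 0.14 and -0.02.

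The ephrin-A ligands were called in neither comparison (0 of 5 in each, with 2 and 1 at an unadjusted p under 0.05). Between the branches 4 of the 5 differences were positive, the widest that of Efna1 at 0.33 (adjusted p = 0.30), with signals of 134, 98.4 and 106 in the mandibular branch and 90.9, 84.4 and 71.6 in set 1. Efna4 averaged 340.4 ± 25.0 against 278 ± 18.0, a difference of 0.26 ± 0.09 (adjusted p = 0.14). In the Dlx5/6 mutant the ephrin-A differences ran from -0.13 (Efna2) to 0.22 (Efna5). Second probe sets had the opposite sign for Efna2 in both comparisons (-0.29 between branches, 0.13 in the mutant). The same held for Efna5 between branches (0.12) and for Efna1 in the mutant (0.04).

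The EphA receptor genes held 2 of the 4 genes that fell in the mutant. Epha3, a receptor for ephrin-A ligands, had signals of 459, 506 and 438 in the wild-type mandibular branch and 306, 286 and 313 in the Dlx5/6 mutant. In set 1 it read 362, 332 and 339, in set 2 360.3, 283 and 363, and in KO 258, 290.3 and 275. All wild-type mandibular arrays lay above the other 12, and the mutant arrays lay below those of set 1. Epha3 was 1.36-fold higher in the mandibular than in the maxillary wild-type branch, 0.41 ± 0.09 (adjusted p = 0.010), and wild type was 1.55-fold above the mutant, -0.57 ± 0.09 (95% interval -0.76 to -0.39, adjusted p = 0.00039). Its 4 probe sets were all positive between the branches (0.41 to 0.65, 2 called) and all negative in the mutant (-0.73 to -0.35, 2 called). The call between branches was lost without wild-type mandibular replicate 2 or set 1 replicate 2 or 3 (adjusted p up to 0.084).

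Epha4, a receptor that binds both ephrin-A and ephrin-B ligands, did not follow the branch. It read 444, 548 and 604 in the wild-type mandibular branch and 534, 524 and 533 in set 1, a difference of -0.01 (95% interval -0.24 to 0.21). In the Dlx5/6 mutant it read 383, 347 and 404, below every array of both groups. The difference from wild type was -0.45 ± 0.11 (adjusted p = 0.021), with wild type 1.41-fold above, and that from set 1 was -0.46 ± 0.11 (adjusted p = 0.045). Epha4 was the only 1 of the 30 guidance genes called between the mutant mandibular and the wild-type maxillary branch, where 0.523% of all genes were called lower, 0.258% higher and 0.782% in either direction. Its other probe sets disagreed: of 5, 4 were negative and 1 positive in the mutant (-0.45 to 0.28, 1 called), and over the mean of its probe sets the difference was -0.09 (adjusted p = 0.83). The call in the mutant was lost without mutant replicate 1 or 2 or wild-type mandibular replicate 2 or 3 (adjusted p up to 0.14). The call against set 1 was lost without any 1 of the 6 arrays (0.078 to 0.26), and over the mean of the probe sets.

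Epha7 differed by -0.31 ± 0.10 in the mutant (adjusted p = 0.13) and by -0.41 ± 0.10 between mutant and set 1 (adjusted p = 0.088). Of its 4 probe sets, 3 were negative and 1 positive in the mutant (-0.31 to 0.06). It read 318, 247 and 339 in the mutant, 325, 428 and 412 in the wild-type mandibular branch and 388, 434 and 412 in set 1, so 2 of the 3 mutant arrays lay below every other array of these groups. Epha1 and Epha2 were dim, with group means of 18.2 to 30.0 and 32.5 to 40.7, and their differences lay between 0.02 and 0.09 in both comparisons.

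The EphB receptor genes were called in neither comparison (0 of 4 in each, and 0 of 4 at an unadjusted p under 0.05). Ephb3 differed by 0.09 between branches and 0.11 in the mutant, from group means of 337 to 408. Ephb4, the receptor of venous endothelium, averaged 237 ± 38.3 in the wild-type mandibular branch, 252 ± 16.3 in the mutant and 260.0 ± 9.63 in set 1, and differed by -0.13 and 0.11. All 4 differences of the family were positive in the mutant, the widest 0.16 for the dim Ephb1.

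**Figure D3:**
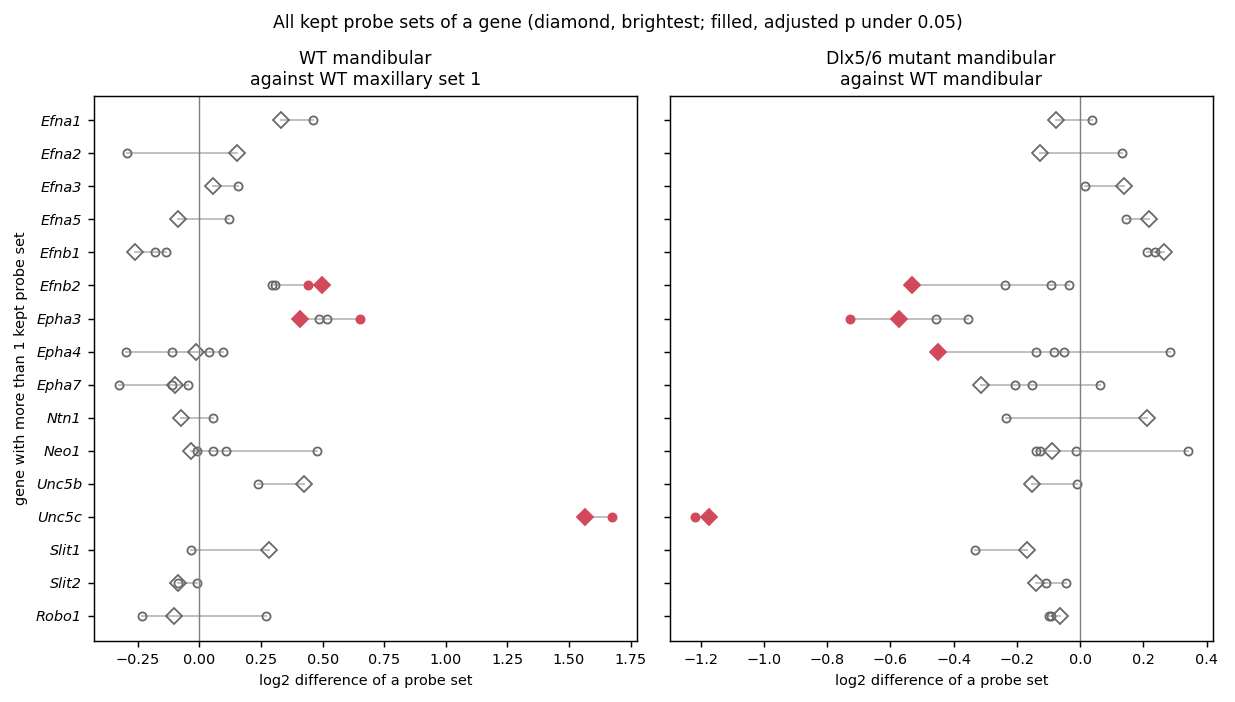
Log2 differences of every kept probe set of the 16 guidance genes with more than 1 kept probe set (rows). The left panel compares the wild-type branches, and the right panel the Dlx5/6 mutant with wild type. Diamonds mark the brightest probe set not ending in _s_at or _x_at, and filled marks an adjusted p under 0.05. The probe sets of Unc5c, Efnb2 and Epha3 fall on 1 side of zero in both panels, while those of Epha4 span -0.45 to 0.28 on the right.

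Slit and Robo genes were called in neither comparison (0 of 3 and 0 of 4 in each; at an unadjusted p under 0.05, Slit3 in the mutant). Slit2, a repellent of cranial axons, had group means of 202 ± 14.2 in the wild-type mandibular branch, 177 ± 17.0 in the mutant and 215 ± 13.9 in set 1, and its differences were -0.09 and -0.14, with all 3 probe sets negative in both. Slit3 varied more between arrays: it read 45.8, 30.7 and 54.8 in the wild-type mandibular branch and 34.3, 4.28 and 31.0 in the mutant, a difference of -0.50 ± 0.23 (adjusted p = 0.33), with 1 mutant array far below the rest. Robo1 averaged 489 ± 45.7, 471 ± 100.3 and 523 ± 24.5 in the wild-type mandibular, mutant and set 1 arrays. Robo2 read 58.5, 50.1 and 43.4 in the wild-type mandibular branch, 34.9, 38.6 and 37.1 in the mutant and 35.2, 39.5 and 33.2 in set 1. The wild-type mandibular arrays thus lay above the other 6, yet neither the difference of 0.30 between branches (adjusted p = 0.43) nor that of -0.26 in the mutant (adjusted p = 0.50) passed the test.

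Between the Dlx5/6 mutant mandibular branch and the wild-type maxillary branch (set 1), the 30 guidance genes had 18 positive and 12 negative differences with a median of 0.06. A gene without a call here is not thereby shown to have reached the maxillary level. Beside Epha4, no gene was called by limma, and 6 had an unadjusted p under 0.05 (20%, against 8.9% of all genes), 3 in each direction. Unc5c, Efna4 and Robo3 were positive. Efna4 read 325, 353 and 382 in the mutant and 270.5, 265 and 298 in set 1 (0.32 ± 0.09, adjusted p = 0.11), and Robo3, an atypical Robo receptor, read 24.5, 31.2 and 25.5 against 15.8, 11.8 and 12.4 (0.41 ± 0.17, adjusted p = 0.46). Epha4, Epha7 and Slit2 were negative, Slit2 at 196, 164 and 172 against 219, 226 and 199 (-0.23 ± 0.10, adjusted p = 0.53). The groups did not overlap for 8 of 30 genes (26.7%), against 15.2% of all genes.

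In KO against set 2, 0 of 30 guidance genes were called by limma, where 1.25% of all genes were (0.638% higher and 0.617% lower). At an unadjusted p under 0.05 there were 6 (20%, against 11.6% of all genes): Dcc, Efna5, Ephb3 and Robo4 positive, Epha3 and Epha4 negative. The 30 differences lay between -0.38 and 0.51, with 19 positive and 11 negative and a median of 0.08 beside 0.00 over all genes. Shifting arrays to a common median, in place of quantile normalization, gave 15 positive and 15 negative, and moved the median of all genes to -0.05. Epha4 had the lowest value: 419, 348 and 319 in KO against 474, 433 and 552 in set 2, with no overlap, a difference of -0.38 ± 0.11 (adjusted p = 0.11). All 5 Epha4 probe sets were negative here (-0.38 to -0.10), as were all 4 of Epha3 (-0.39 to -0.08), and the brightest Epha3 probe set differed by -0.25 ± 0.09 (adjusted p = 0.27). Efna5, a ligand of EphA receptors, read 344, 404 and 413 in KO against 334, 279 and 307 in set 2. These did not overlap either, and differed by 0.32 ± 0.10 (adjusted p = 0.16). On the second, dim Efna5 probe set the groups overlapped, with a difference of 0.09. Endothelial markers were positive in 10 of 10, with Emcn called (0.47, adjusted p = 0.0096), and summed to 1464 to 1726 in KO and 1103 to 1287 in set 2. Robo4, a Robo gene of endothelium, differed by 0.38 (adjusted p = 0.46); the part of these cells in its value was not tested. Groups did not overlap for 7 of 30 genes (23.3%), against 16.7% of all genes.

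The 2 wild-type maxillary groups differed from each other in 4 guidance genes, with 3 called higher and 1 lower in set 2, where 4.12% and 4.85% of all genes were called higher and lower and 8.98% in either direction. Array set and group cannot be told apart in this comparison. Ephb4 showed the widest difference: 249, 264 and 267 in set 1 against 177, 102 and 127 in set 2, -0.80 ± 0.13 (adjusted p = 0.00032). KO, which shared the spike-in level of set 2, read 129, 154 and 129. Robo1 read 551, 512 and 506 in set 1 and 671, 699 and 687 in set 2 (0.39 ± 0.10, adjusted p = 0.021), with KO at 654, 653 and 609. Efna2 (409 against 515, 0.33, adjusted p = 0.020) and Efna4 (278 against 339, 0.29, adjusted p = 0.039) were the others. With an array left out, Robo1 lost its call in 4 of 6 fits, Efna4 in 5, Efna2 in 3 and Ephb4 in 0. Robo1 and Efna2 also lost theirs over the mean of the probe sets. Any comparison of the mandibular groups with set 2, or of KO with set 1, carries these differences. With set 2 in place of set 1, Unc5c, Efnb2 and Epha3 were again called higher in the wild-type mandibular branch (1.74, 0.54 and 0.42). Ephb4 was also called higher, and Robo1 and Slit2 lower, all at a background of 11.3%. On another Epha3 probe set the wild-type mandibular and set 2 arrays overlapped. With set 1 as the control, KO had Dcc, Efna4 and Slit1 called higher and Epha4 and Ephb4 lower, at a background of 11.6%. The Dlx5/6 mutant against set 2 gave 7 calls at a background of 11.4%, and the difference of the mutant effects with set 1 as the control of KO gave 3 at 8.08%.

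**Figure D4:**
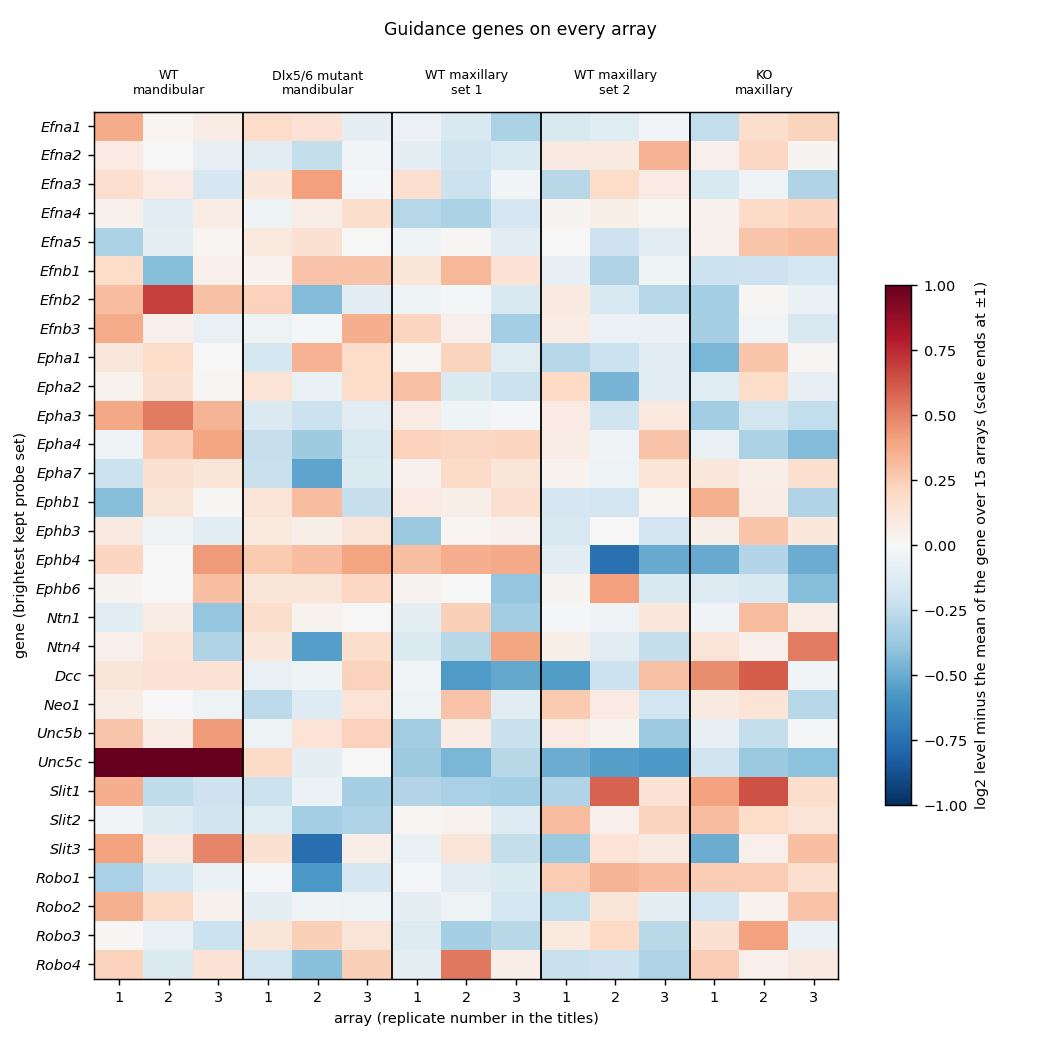
Log2 level of each of the 30 guidance genes (rows) on each of the 15 arrays (columns, by group), minus the mean of the gene over all arrays, with the colour scale ending at ±1. Unc5c is the row that stands out on the 3 wild-type mandibular arrays, and Ephb4 and Robo1 change shade between the first 9 columns and the last 6.

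Further genes of these pathways were read from a list of 49 that the symbol rule leaves out, 48 of them on the array and 45 kept. Between the wild-type branches 2 of the 45 were called higher and 2 lower, with a median of 0.00, where 3.56% of all genes were called. In the mutant 1 was called higher and 1 lower, with a median of -0.01, beside 3.13% of all genes, and in KO 1 was called higher, beside 1.25%. Flrt2 and Flrt3 encode FLRT proteins, which bind UNC5 receptors and latrophilins. Flrt2 read 844, 851 and 952 in the wild-type mandibular branch, 596, 607 and 696 in the Dlx5/6 mutant, 555, 571 and 543 in set 1, 536, 519.8 and 567 in set 2 and 799.9, 806 and 769 in KO. It was 1.59-fold higher in the mandibular than in the maxillary wild-type branch (0.63 ± 0.07, adjusted p = 4.2e-06). In the mutant it was lower than in wild type (-0.46 ± 0.07, adjusted p = 0.00045). Unc5c moved the same way in both. Between the branches the second Flrt2 probe set gave 0.63 (called) and the third 0.28 (adjusted p = 0.55). With set 2 as the maxillary group the second gave 0.30 (adjusted p = 0.059). Flrt2 was called higher in KO than in set 2 (0.53 ± 0.07, adjusted p = 0.00017), where Unc5c was higher without a call. The effects of Dlx5/6 loss and KO on Flrt2 differed by -0.997 ± 0.10 (SE, adjusted p = 2.3e-06). The mutant call rests on its brightest probe set: the second gave -0.32 (adjusted p = 0.10) and the third 0.00, whereas in KO the 3 gave 0.53, 0.82 and 0.65, the last not called, where 0.912% of all probe sets were called. Flrt3 read 849, 868 and 771 in the wild-type mandibular branch and 638, 554 and 536 in set 1 (0.51 ± 0.07, adjusted p = 6.4e-05; 0.21, not called, on its second probe set), and differed by -0.22 in the mutant (adjusted p = 0.14). Adgrl2, a latrophilin gene, went the other way, lower in the mandibular branch (-0.32, adjusted p = 0.018) and higher in the mutant (0.43, adjusted p = 0.0014). Its second probe set was called in both, at -0.36 and 0.43, and the third gave 0.15 and -0.12, neither called. Fyn, a kinase that acts below DCC, differed by -0.51 between the branches and was called lower in the mandibular one (adjusted p = 0.0057). The second Fyn probe set gave -0.32 (adjusted p = 0.18), and with set 2 as the maxillary group the first gave -0.20 (adjusted p = 0.26), neither called. Partners and effectors of Eph and ephrin proteins gave 0 calls among 16 in each of the 3 comparisons, with 4, 2 and 2 at an unadjusted p under 0.05, and the 7 genes of Slit and Robo signalling gave 0 calls in each, with 1, 1 and 0.

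**Figure D5:**
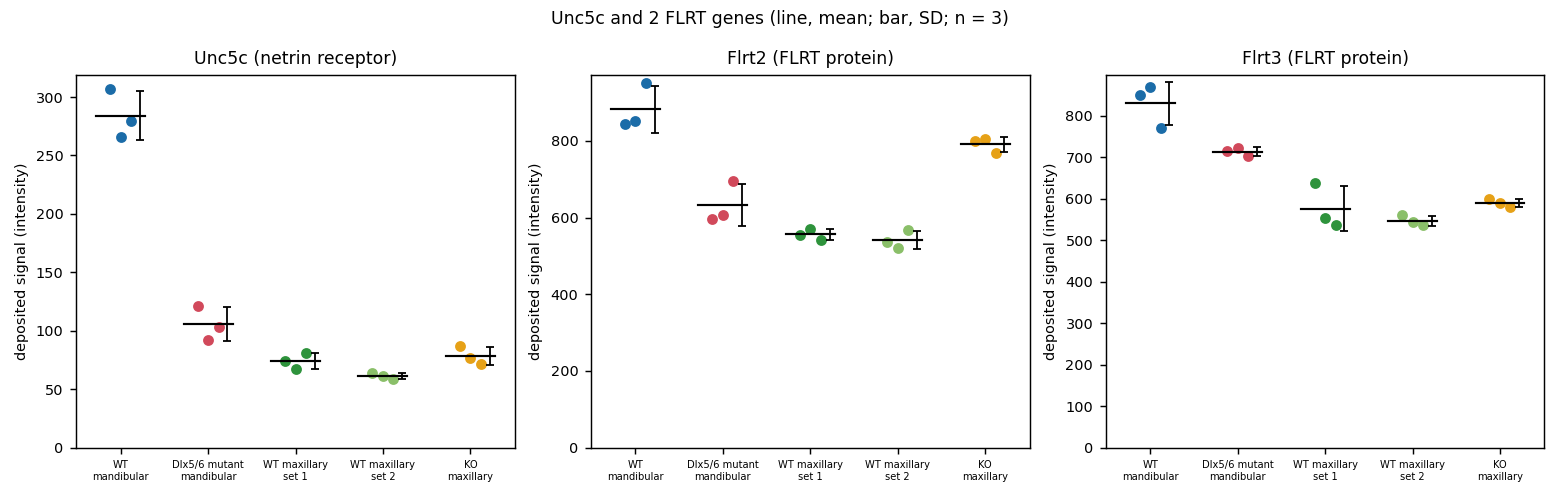
Signal of Unc5c, Flrt2 and Flrt3 on each of the 15 arrays (points, by group), with group means (lines) and SD (bars, n = 3). Flrt2 is at 769 to 806 in KO, above set 2 (519.8 to 567). Unc5c is at 71.5 to 87.3 in KO and at 58.3 to 63.6 in set 2, a difference that was not called.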

How the data were processed

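RNA from 15 samples was hybridised to Affymetrix mouse arrays, 1 array per sample, and the deposited intensity values per probe set were used. The scaling to a common trimmed mean was read from the values; the authors' software and background correction are not given in the sources used here. Probe set names came from the platform annotation: 34945 probe sets had 1 symbol, 932 several and 9160 none, and all 76 member probe sets matched a RefSeq gene. After removal of 64 control probe sets, log2(intensity + 32) was quantile normalized and 31677 probe sets above the 40th percentile on at least 3 arrays were fitted in limma 3.58.1 (R 4.3.3) with a mean per group over all 15 arrays (10 residual degrees of freedom) and an intensity trend. P-values were adjusted by Benjamini-Hochberg over all of them. A gene was read on its brightest probe set, those ending in _s_at or _x_at only where no other was kept. The median SE was 0.15. The script was tested on simulated data.

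The labels do not state that the arrays of a group hold RNA of different litters, so p-values measure the spread between these arrays, which may be technical. Replicate numbers were not read as pairs, since residuals of same-numbered arrays correlated at -0.10 to 0.08 over 30 pairs. The members, gene lists and tests were chosen with earlier results of these data known. Genes called in a main comparison are described array by array, others by level and range, with up to 4 named per family and per list. The ATTA search was added after that for TAATTA. Alternatives covered scaling, pseudocount, filter, probe set choice, the model, the maxillary control group and each array left out.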

Additional observations from a re-analysis of the deposited data

Results flagged for a closer look

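The effect of Dlx5/6 loss on Unc5c in the mandibular branch differed from the effect of KO in the maxillary branch by -1.38 ± 0.16 on the log2 scale (adjusted p = 9.8e-06 by limma), a test of the difference itself. Unc5c was lower on 3 of 3 Dlx5/6 mutant arrays than on any wild-type mandibular array. On its brightest probe set the KO arrays lay above those of set 2, without a call. On its second probe set KO and set 2 overlapped. Muscle progenitor markers moved the same way in this difference (4 of 5 negative, median -0.86, Myf5 called at -1.34), and their part was not tested. Each mutant was compared with its own wild-type group, and the branches and the array sets differ as well as the mutated genes. Unc5c also started lower in set 2 (58.3 to 63.6 signal units) than in the wild-type mandibular branch (266 to 307). The part of this lower starting level in the difference was not tested. The difference of the effects was -1.61 to -0.91 over the other settings and -1.46 to -1.32 with each of the 12 arrays left out, always called.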

How the results depend on the processing

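Among 30 guidance genes, the 3 called between the wild-type branches became 6 with set 2 as the maxillary group, and 1 to 3 with an array left out. The 4 called in the Dlx5/6 mutant became 2 (Epha3 and Unc5c) without an intensity trend or over the mean of the probe sets of a gene, and 2 to 5 with an array left out. The 0 called in KO became 1 (Epha4) after shifting to a common median and 5 with set 1 as the control, and stayed 0 to 0 with an array left out. Between mutant mandibular and set 1 the 1 call became 0 under a common median, pseudocount 8, no filter, the replicate block or no trend. Over the mean of probe sets there were 2 calls, without Epha4. There were 7 with set 2, and 0 to 0 with an array left out. The difference of the mutant effects gave 1 call, 3 with set 1 as the control of KO and 1 to 1 with an array left out. Between set 2 and set 1 the 4 calls became 1 without a trend and 1 to 3 with an array left out. With the replicate number as a block the counts were 2 (without Efnb2), 4, 0, 0, 1 and 4 in the same order of comparisons. The cause of these changes was not tested.

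Unc5c kept its calls in these 2 comparisons in all settings tried, between 1.02 and 1.82 for the branches and -1.33 and -0.80 in the mutant, and Epha3 kept its call in the mutant. No called guidance gene changed sign in the settings tried. Over all genes the calls ran from 384 to 1581 between the branches (496 as reported), 246 to 579 in the mutant (436), 104 to 1623 in KO (175), 75 to 1589 between mutant and set 1 (109), 134 to 1127 for the difference of effects (201) and 714 to 1480 between the maxillary sets (1252). With an array left out, the lowest counts were 375, 290, 109, 73, 157 and 790. Under a common median the share of called genes that were higher moved from 43.5% to 55.9% between branches, from 50.9% to 33.1% in KO and from 33.0% to 44.2% between mutant and set 1. Efnb2 lost its call between the branches in 4 of 6 fits with an array left out and in 6 of 14 other settings (deposited scaling only, pseudocount 8, no filter, the replicate block, no trend and arrays of 1 array set alone, the last added after seeing the data, adjusted p up to 0.20). It lost its call in the mutant in 3 of 6 fits with an array left out and in 4 of 13 other settings.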
